A study of Mus musculus with 2 samples.

Results

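The genes described here are 10 regulators of pre-mRNA splicing in heart muscle: Rbm20, Rbm24, Mbnl1, Mbnl2, Celf1, Celf2, Rbfox1, Rbfox2, Ptbp1 and Srsf1. They were taken by gene symbol alone from the GENCODE M21 annotation and are 10 of the 55536 mouse genes in the deposited gene tables. Total RNA was sequenced from the hearts of 2 adult male B6CASTF1/J mice, hybrids with 1 parent of strain C57BL/6J and 1 of CAST, with 1 library per animal. The animals were 8 to 10 months old, and the labels name no treatment or genetic change. Each library was made from 300 ng of RNA after reduction of ribosomal RNA, with a strand-keeping kit and ERCC spike-ins. Replicate 1 is the mouse labelled animal 2 and replicate 2 the mouse labelled animal 4, although both libraries carry the same donor entry. The mice form a single group, so no condition was compared. No p-value is printed, since the smallest two-sided p of an exact sign-flip test on so few libraries is 0.5. Values after ± are SDs over both libraries (n = 2). The tables are on mm10, the C57BL/6J assembly, and hold no separate values for the CAST allele.

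Introns are removed from most mammalian transcripts by the spliceosome, and RNA-binding proteins decide which alternative exons stay in the mRNA by binding near them. In heart muscle such proteins shape the giant sarcomere protein titin, calcium channels and calcium handling proteins, and the balance between Mbnl and Celf proteins is known to shift many exons between fetal and adult forms. Several of these regulators also act on their own transcripts or on those of their relatives, often through exons whose inclusion or skipping exposes the mRNA to decay.

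The libraries held 42.05 M and 39.98 M expected counts on mouse genes in replicates 1 and 2. Each of the 10 regulators had between 903 and 9949 counts per library. All 6 heart muscle markers (Myh6, Actc1, Tnnt2, Tnni3, Ryr2 and Pln) were present, with a median of 3327 ± 188 TPM (a level per transcript length, scaled so that every library has the same sum). The tissue is a mixture of cells. All 5 endothelial markers were present with a median of 37.0 ± 3.09 TPM, all 5 fibroblast markers with a median of 17.4 ± 0.205 TPM, and all 5 smooth muscle and pericyte markers and all 5 macrophage markers were present as well. None of the 5 neuron and Schwann cell markers reached 1 TPM in both libraries, and their summed level was 1.63 TPM in replicate 1 and 1.09 TPM in replicate 2. In whole tissue, fewer cells of a type and less RNA per cell cannot be told apart, and which cells made each regulator's RNA was not tested.

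All 10 regulators reached 1 TPM in both libraries. For comparison, 10755 of 22015 nuclear protein-coding genes (48.9%) did so. The median regulator had a mean of 34.7 TPM, against a median of 8.22 TPM over the detected protein-coding genes. The mean levels of the regulators ran between 18.8 TPM for Ptbp1 and 88.7 TPM for Mbnl1, which lie at the percentiles 73.7 and 94.5 of detected protein-coding genes. Mbnl1, Mbnl2 and Rbm20 formed the highest tier and their libraries overlapped, so their order was not resolved. In the gene tables Rbm24 stood alone below them, with both libraries under all of theirs and above all of the next genes. Among the next genes Rbfox2 overlapped Srsf1 and Srsf1 overlapped Celf1, while Rbfox2 lay above Celf1 in both libraries. At the low end Celf2 overlapped Rbfox1 and Rbfox1 overlapped Ptbp1, and all 3 lay below both Celf1 libraries. This order is that of the gene tables. In a second deposited quantification, described below, the upper tiers differed. Mbnl1 lay above Rbm20 in both libraries there. Mbnl2 overlapped Rbm24 and had the lower mean, at 64.8 TPM against 67.8 TPM.

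**Figure D1:**
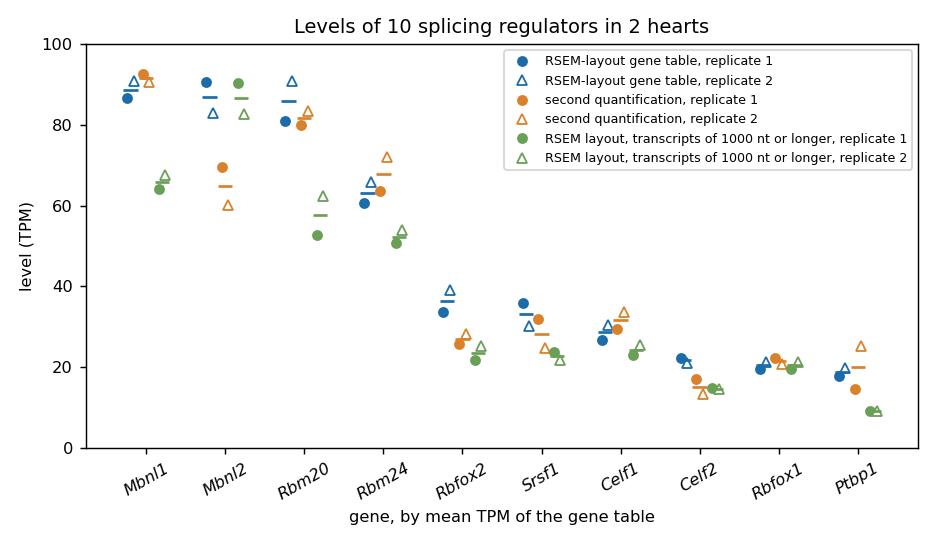
Level in TPM (vertical axis) of each regulator (horizontal axis, by mean of the gene tables) in both hearts; filled circles are replicate 1, open triangles replicate 2 and dashes their mean, for the deposited gene tables, the second deposited quantification, and the gene tables' transcripts of 1000 nucleotides or longer. Mbnl1, Mbnl2, Rbm20 and Rbm24 lay above 50 TPM in every library and on all of these scales, and the other 6 genes lay below 40 TPM.

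Rbm20 encodes the RNA-binding protein best known for keeping titin exons out of the mature mRNA. Its variants in people can cause dilated cardiomyopathy. The gene lies on mm10 at chr19:53677306-53867080 on the plus strand and has 3 annotated transcripts. Rbm20 stood at 81.0 TPM in replicate 1 and 90.7 TPM in replicate 2 (85.9 ± 6.88 TPM), with 8948 and 9949 counts. A second deposited quantification of the same libraries, whose tables have another layout than the RSEM layout of the gene tables, gave 80.0 and 83.4 TPM, so both libraries were high on both scales. The gene's TPM was split almost evenly among its 3 transcript models. Rbm20-203, the longest model, coding and of 4892 nucleotides, held 35.1 ± 2.20% of the TPM and 51.6% of the counts. Rbm20-202, a model of only 465 nucleotides, held 33.0 ± 2.66% of the TPM but 3.71% of the counts (TPM divides counts by length). Rbm20-201, annotated as a target of nonsense-mediated decay (the pathway that degrades mRNAs whose reading frame ends too early), held 31.9 ± 0.460% of the TPM and 44.7% of the counts.

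Rbm20-201 contains a 46-nucleotide exon that Rbm20-203 lacks, at chr19:53852354-53852399 on the plus strand. The exon is shown because it is the only internal exon of Rbm20-201 that lies within an intron of Rbm20-203. The annotated reading frame of Rbm20-201 ends in exon 5 of 7, the exon after it, 142 nucleotides before the last exon junction. Capitals mark the alternative exon, and lower case marks the 12 bases of the neighbouring exon on each side, from the GENCODE M21 transcript, as in the other exons printed below.
Rbm20 46-nucleotide exon: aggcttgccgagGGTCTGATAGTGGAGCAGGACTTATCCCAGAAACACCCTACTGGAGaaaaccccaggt
The share of the including model over the sum of both models was 48.5% in replicate 1 and 46.8% in replicate 2, and 46.6 ± 1.07% in the second quantification. These shares belong to whole models and are not reads counted across the exon's junctions. Of the 1759 bases that Rbm20-201 has and Rbm20-203 lacks, 1700 lie in the last exon, which runs further in Rbm20-201, and 46 are the exon itself. How much of the estimate came from reads on the exon cannot be read from these tables.

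Rbm24, an RNA-binding protein required for sarcomere assembly and known to promote inclusion of muscle exons, is a compact gene at chr13:46418434-46431095 on the plus strand. It stood at 60.6 and 65.7 TPM (63.2 ± 3.65 TPM) with 5384 and 5412 counts, and the second quantification gave 63.7 and 72.0 TPM. Both hearts were thus within a narrow range. One coding model, Rbm24-201, held 83.8% and 81.9% of the TPM and 97.8% of the counts, the clearest leading transcript among the 10 genes. Its share was lower in the second quantification, at 75.9% and 66.3%. Relative to Rbm20, the level of Rbm24 was lower in both libraries, by a log2 TPM ratio of -0.44 ± 0.03. With the models under 1000 nucleotides left out, that ratio was -0.13 ± 0.11, still below 0 in each library.

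Mbnl1 and Mbnl2 encode muscleblind proteins, which promote adult splicing patterns and are trapped by expanded CUG repeats in myotonic dystrophy. Mbnl1 (chr3:60472830-60629750, plus strand, 25 transcripts) stood at 86.5 and 90.8 TPM (88.7 ± 3.05 TPM), and Mbnl2 (chr14:120275669-120431697, plus strand, 10 transcripts) at 90.6 and 83.0 TPM (86.8 ± 5.37 TPM). Neither paralog was consistently higher: the log2 ratio of Mbnl1 to Mbnl2 was -0.07 in replicate 1 and 0.13 in replicate 2. Their order depended on the quantification. The second quantification put Mbnl1 higher in both libraries, by 0.50 ± 0.13 (log2), and the transcripts of 1000 nucleotides or longer put it lower in both, by -0.39 ± 0.14. Short models held 25.6% of the Mbnl1 TPM, against 0.217% of the Mbnl2 TPM.

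No Mbnl1 transcript was dominant. Mbnl1-221, a coding model of 1553 nucleotides, led with 23.2 ± 3.34% of the TPM, and Mbnl1-201, of 5655 nucleotides, followed with 22.5 ± 1.90% while holding 40.1% of the counts. For Mbnl2 the coding model Mbnl2-204 led with 57.6 ± 0.368% of the TPM. The next was Mbnl2-205, a model of 2 exons annotated as a processed transcript, with 39.9 ± 0.919% in the gene-table layout and 18.0% in the second quantification. Mbnl2-201, a coding model of 4552 nucleotides with the 54-nucleotide exon described below, was at 0.18 and 0.13 TPM in the first layout and at 21.9 and 18.4 TPM in the second. All 2390 bases of Mbnl2-204 are also in Mbnl2-201.

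Both genes carry a 54-nucleotide exon, known to help keep Mbnl proteins in the nucleus and to be skipped more as muscle matures, and a 95-nucleotide exon nearer the end of the coding sequence. Their sequences are shown because the paralogs' alternative exons match closely. The exons lie at chr3:60614683-60614736 and chr3:60622146-60622240 in Mbnl1 and at chr14:120395712-120395765 and chr14:120404638-120404732 in Mbnl2.
Mbnl1 54-nucleotide exon: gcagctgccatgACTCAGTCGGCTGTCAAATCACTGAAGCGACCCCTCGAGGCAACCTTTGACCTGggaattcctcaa
Mbnl2 54-nucleotide exon: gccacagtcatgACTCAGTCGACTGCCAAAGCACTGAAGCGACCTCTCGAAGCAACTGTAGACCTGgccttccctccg
Mbnl1 95-nucleotide exon: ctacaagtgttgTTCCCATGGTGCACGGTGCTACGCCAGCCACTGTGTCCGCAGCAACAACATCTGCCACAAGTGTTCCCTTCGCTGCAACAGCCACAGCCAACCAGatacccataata
Mbnl2 95-nucleotide exon: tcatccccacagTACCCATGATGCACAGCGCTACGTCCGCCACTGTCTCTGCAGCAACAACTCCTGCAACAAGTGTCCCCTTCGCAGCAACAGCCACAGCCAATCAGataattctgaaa
The paralogs' 54-nucleotide exons were identical at 46 of 54 positions and the 95-nucleotide exons at 81 of 95. In Mbnl1, transcripts with the 54-nucleotide exon made up 51.9% and 56.4% of the TPM of the transcripts that include or skip it. The second quantification gave 50.3 ± 2.36%. Over long transcripts alone the share was 41.8% and 43.4%, and by expected counts 44.2% and 46.7%. The short including model Mbnl1-216, of 974 nucleotides, stood at 9.06 and 11.92 TPM. Which form held the majority thus depended on the scale. A 36-nucleotide Mbnl1 exon stood at 57.2% and 54.9%, and the 95-nucleotide exon at 72.1% and 75.6%. In the second quantification each of these Mbnl1 exons was within 10 percentage points of its gene-table TPM share, and both hearts were near each other. The 95-nucleotide exon of Mbnl2 stood at 58.8% and 60.1% in the gene-table layout but at 80.3% and 81.9% in the second quantification. The gap was 21.7 points between the methods and 1.28 points between the animals. Its only skipping model was Mbnl2-205, the processed transcript of 2 exons, set against 5 including models. The value is thus the split between Mbnl2-205 and those models, and exon choice among coding Mbnl2 models was not measured.

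Celf1 and Celf2 encode CUG-binding proteins that act against Mbnl proteins on many exons and are known to decline in heart after birth, mainly at the protein level. Celf1 (chr2:90940382-91019497, plus strand) stood at 26.7 and 30.5 TPM (28.6 ± 2.65 TPM), and Celf2 (chr2:6539694-7509563, minus strand, spanning 970 kb) at 22.4 and 21.2 TPM (21.8 ± 0.877 TPM). Celf1 was higher in both libraries, by 0.39 ± 0.19 (log2 TPM). The second quantification gave a wider gap of 1.07 ± 0.39, and long transcripts alone gave 0.73 ± 0.12. Mbnl1 exceeded Celf1 by 1.63 ± 0.08 (log2 TPM), a 3.11-fold ratio of levels, and by 1.44 ± 0.04 over long transcripts. That ratio is of RNA and says nothing of protein.

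The leading Celf transcripts were unstable between quantifications. Celf1-201 led with 34.0 ± 0.573% of the TPM, whereas in the second quantification Celf1-205 led with 26.3% and Celf1-201 held 14.8%. For Celf2 the gene-table layout gave 32.0 ± 0.898% of the TPM to Celf2-203, a coding model of 529 nucleotides with 4.64% of the counts, and the second quantification gave it 0.529%. Celf2-206, of 5470 nucleotides, led there with 30.3%. Among the 23 alternative exons counted below, a 53-nucleotide exon of Celf1 showed the widest gap between the quantifications. Its inclusion was 9.09% and 16.1% in the first layout, against 39.4% and 54.02% in the second. Its including models held 22.4 and 47.1 counts, so the value rests on few reads. A 144-nucleotide coding exon of Celf2 was included at 91.5% in each library and at 76.8 ± 2.61% in the second quantification, among models that include or skip it. The including models stood at 12.1 and 11.1 TPM, against 22.4 and 21.2 TPM for the gene, since other models such as Celf2-203 are in neither group.

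Rbfox1 and Rbfox2 encode proteins that bind UGCAUG elements in introns beside muscle and brain exons. Rbfox2 (chr15:77078990-77307004, minus strand) stood at 33.6 and 39.0 TPM (36.3 ± 3.85 TPM), and Rbfox1 (chr16:5885355-7411526, plus strand), which spans 1526 kb, at 19.6 and 21.3 TPM (20.4 ± 1.18 TPM). Rbfox2 was higher in both libraries, by 0.83 ± 0.07 (log2 TPM). The gap was 0.32 ± 0.16 in the second quantification and 0.20 ± 0.07 over transcripts of 1000 nucleotides or longer. A processed transcript of 417 nucleotides, Rbfox2-205, accounted for 28.6 ± 3.05% of the Rbfox2 TPM but 2.89% of its counts and 5.20% of the second quantification's TPM. For Rbfox1 no TPM lay on models under 1000 nucleotides in the gene-table layout. In the second quantification Rbfox1-206, a model of 558 nucleotides with the 43-nucleotide exon described below, held 3.99 and 2.03 TPM. The third paralog, Rbfox3, a marker of mature neurons, stood at 0.02 TPM in each library.

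Each gene carries a pair of alternative exons of 40 and 43 nucleotides that are known to be used one at a time, the 43-nucleotide exon mainly in muscle and the 40-nucleotide exon mainly in brain. Their sequences are shown because the results on both genes turn on this choice. They lie at chr16:7363865-7363904 and chr16:7369801-7369843 in Rbfox1, and at chr15:77094451-77094490 and chr15:77091812-77091854 in Rbfox2, whose letters are given on the minus strand.
Rbfox1 40-nucleotide exon: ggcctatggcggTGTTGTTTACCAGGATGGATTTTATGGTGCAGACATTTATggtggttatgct
Rbfox1 43-nucleotide exon: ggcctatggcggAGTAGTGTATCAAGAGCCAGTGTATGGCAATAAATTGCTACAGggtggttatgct
Rbfox2 40-nucleotide exon: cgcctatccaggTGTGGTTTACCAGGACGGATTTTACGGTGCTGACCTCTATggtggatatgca
Rbfox2 43-nucleotide exon: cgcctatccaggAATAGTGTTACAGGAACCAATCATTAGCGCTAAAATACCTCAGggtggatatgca
Within each gene both exons share their flanks. Between the genes the 40-nucleotide exons were identical at 34 of 40 positions and the 43-nucleotide exons at 27 of 43. In Rbfox1, transcripts with the 43-nucleotide exon held 48.2% and 54.4% of the TPM, and those with the 40-nucleotide exon 51.8% and 45.6%, so the 40-nucleotide form led in replicate 1 and the 43-nucleotide form in replicate 2. In Rbfox2 the 43-nucleotide exon held 33.1% and 30.5% and the 40-nucleotide exon 66.0% and 65.5%, so in this annotation-based estimate the 40-nucleotide form led in both hearts.

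The second quantification placed these exons within 1.29 points of the first, at 52.5 ± 1.17% for the Rbfox1 43-nucleotide exon and 32.0 ± 1.504% for that of Rbfox2. For Rbfox1 the second value includes the short Rbfox1-206, and Rbfox1-203 alone held 38.3% of the gene's TPM there, against 47.1% for Rbfox1-201. Counts in the gene-table layout gave other shares, 31.8 ± 3.73% and 7.64 ± 0.354%, since the models with the 43-nucleotide exon are shorter. Rbfox1-203 with the 43-nucleotide exon has 1407 nucleotides and Rbfox1-201 with the 40-nucleotide exon 3061, and 1937 bases of Rbfox1-201 are absent from Rbfox1-203. Reads from those bases also weigh on the split between the forms. The neuron markers Snap25 and Tubb3 stood at 0.11 TPM or less in each library.

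Ptbp1 and Srsf1 are general factors present in most cell types. Ptbp1, which represses many tissue-specific exons and is known to fall as muscle and neurons differentiate, lies at chr10:79854427-79864771 on the plus strand. It stood at 17.8 and 19.9 TPM (18.8 ± 1.51 TPM) with 903 and 932 counts, the lowest mean of the 10 in the gene tables. The second quantification, where Celf2 had the lowest mean, placed it at 14.7 and 25.3 TPM, the widest spread between animals of any regulator there. Models under 1000 nucleotides held 50.9% of its TPM and 12.6% of its counts, and without them Ptbp1 stood at 9.17 and 9.27 TPM. Of its 31-base words, 11.5% also occur in 4 other annotated genes, of which Gm4900 shares the most. Its counts are thus less certain than those of the other regulators, where the share was at most 0.350%. Its exons also overlap antisense genes over 983 bases. Whether counting used strand is not given in the sources used here. Antisense overlaps of 1961, 98 and 86 bases occur in Celf2, Srsf1 and Mbnl2.

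A 34-nucleotide exon of Ptbp1, whose skipping is known to lead the mRNA to decay, was included at 87.8% in replicate 1 and 100% in replicate 2, and at 87.0 ± 4.34% in the second quantification. Skipping was assigned 55.5 counts in replicate 1 and 0 in replicate 2. The 78-nucleotide exon of the linker between RNA-binding domains stood at 32.6% and 46.4% in the gene-table layout, against 63.4% and 59.5% in the second quantification. Ptbp1 exceeded its neuronal paralog Ptbp2 by 1.65 ± 0.48 (log2 TPM) and by 1.21 ± 0.03 over long transcripts.

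Srsf1, an SR protein that promotes exon inclusion and is needed for splicing of Camk2d in the growing heart, lies at chr11:88047373-88053755 on the plus strand. It stood at 35.9 and 30.3 TPM (33.1 ± 3.98 TPM), and at 31.9 and 24.8 TPM in the second quantification, so replicate 1 was higher on both. Srsf1-202 and Srsf1-201 shared the lead with 28.9 ± 1.39% and 26.0 ± 2.23% of the TPM in the gene-table layout. Srsf1-201 led in the second quantification, with 39.2% against 27.1% for Srsf1-202, and by counts, with 37.2% against 16.1%. Srsf1 exceeded Ptbp1 by 1.02 and 0.61 (log2 TPM) in replicates 1 and 2. In the second quantification the ratio was 1.12 and -0.03, so the direction held in replicate 1 alone there.

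Short transcript models changed several of these levels. In the gene-table layout, models under 1000 nucleotides held between 0% (Rbfox1) and 50.9% (Ptbp1) of a gene's TPM, and between 0% and 12.6% of its counts. When only longer models were summed, Mbnl2 led with 90.4 and 82.7 TPM and Mbnl1 followed with 64.2 and 67.7 TPM, without overlap. Rbm20 then stood at 52.7 and 62.5 TPM and overlapped Rbm24 at 50.8 and 53.9 TPM. Celf1 lay below Rbfox2 in the gene tables, by -0.34 ± 0.02 (log2 TPM), but above it by 0.05 ± 0.05 over long models and by 0.23 ± 0.04 in the second quantification. The order of this pair was therefore not settled by these tables.

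**Figure D2:**
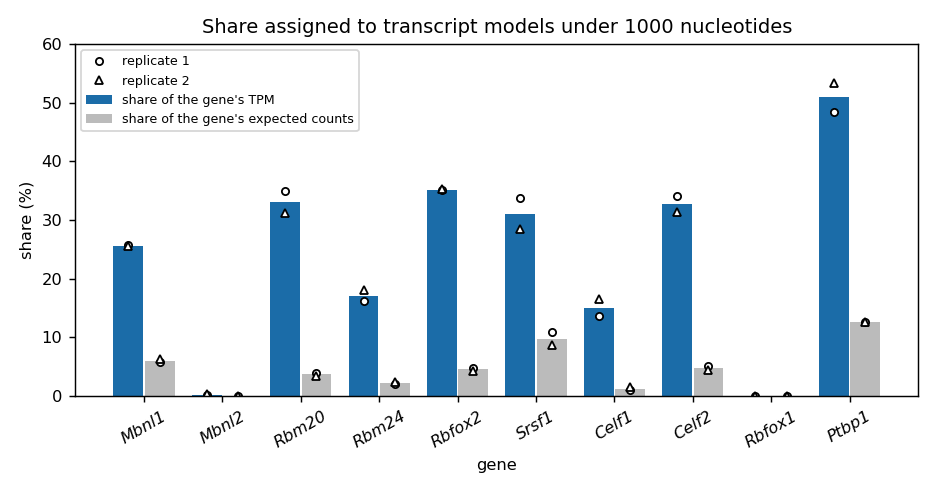
Share (%, vertical axis) of each regulator's TPM (blue bars) and expected counts (grey bars) assigned to transcript models under 1000 nucleotides, as the mean of 2 libraries with replicate 1 as circles and replicate 2 as triangles. The TPM share exceeds the count share in every gene with such models, and reaches 50.9% for Ptbp1.

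By annotated type, protein-coding models held over 50% of the TPM of all 10 regulators in both quantifications. Decay models held the largest share in Rbm20, at 31.9 ± 0.458% of the TPM and 29.8 ± 0.588% in the second quantification. That share is of Rbm20-201 alone, a model of 7 exons against 14 in Rbm20-203. Of its 1759 bases absent from Rbm20-203, 1700 lie in the longer last exon. How much of the share came from reads on the 46-nucleotide exon cannot be read here. Ptbp1 came next at 9.15 ± 5.69% and 6.59 ± 4.29%. Retained-intron models of Srsf1 held 30.8% and 22.8% of its TPM (26.8 ± 5.71%), 8.08% of its counts, and 19.2 ± 6.03% in the second quantification, and replicate 1 was higher on both scales. Rbm24 had 15.4 ± 1.79% on retained-intron models, which carried 2.03% of its counts, and 28.1 ± 5.62% in the second quantification. Processed transcripts held 40.1 ± 0.799% of the Mbnl2 TPM, against 18.8 ± 0.969% in the second quantification. The decay models of Ptbp1 held 13.2% in replicate 1 and 5.13% in replicate 2.

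**Figure D3:**
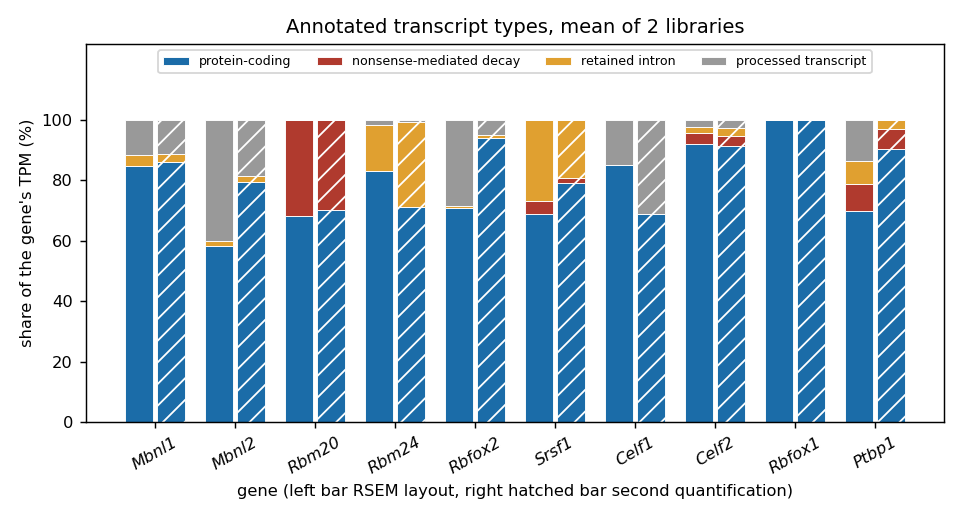
Share of each regulator's TPM (%, vertical axis) by annotated transcript type, as the mean of 2 libraries; the left bar of each gene is the gene-table layout and the right hatched bar the second quantification. Blue, protein-coding models, exceeds 50% in every bar, and red, decay models, is tallest for Rbm20 in both bars.

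The leading transcript was the same in both quantifications for 4 of 10 regulators (Rbm24, Mbnl1, Mbnl2 and Rbfox2). It held over 50% of the gene-table TPM in both libraries for 2 of them, Rbm24 and Mbnl2. For comparison, the lead was the same for 14 of the 20 splicing targets described below. This count was not made over all genes, so whether the regulators are unusual was not tested. Over all 10 genes, 23 exons met the criteria for an alternative exon: models that include and models that skip it, together 5 TPM or more, and a mean inclusion between 5% and 95%. Of the 23, 21 overlap coding sequence and 7 have a length divisible by 3. The 1049-nucleotide exon of Mbnl1 and the 152-nucleotide exon of Celf1 are coding only in part. Inclusion differed between the animals by a median of 4.53 percentage points and by under 10 points for 20 exons. The 3 exons beyond that all lie in Ptbp1 (30, 78 and 34 nucleotides), the regulator with the fewest counts. Between the quantifications, 17 of 23 exons were within 10 points.

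**Figure D4:**
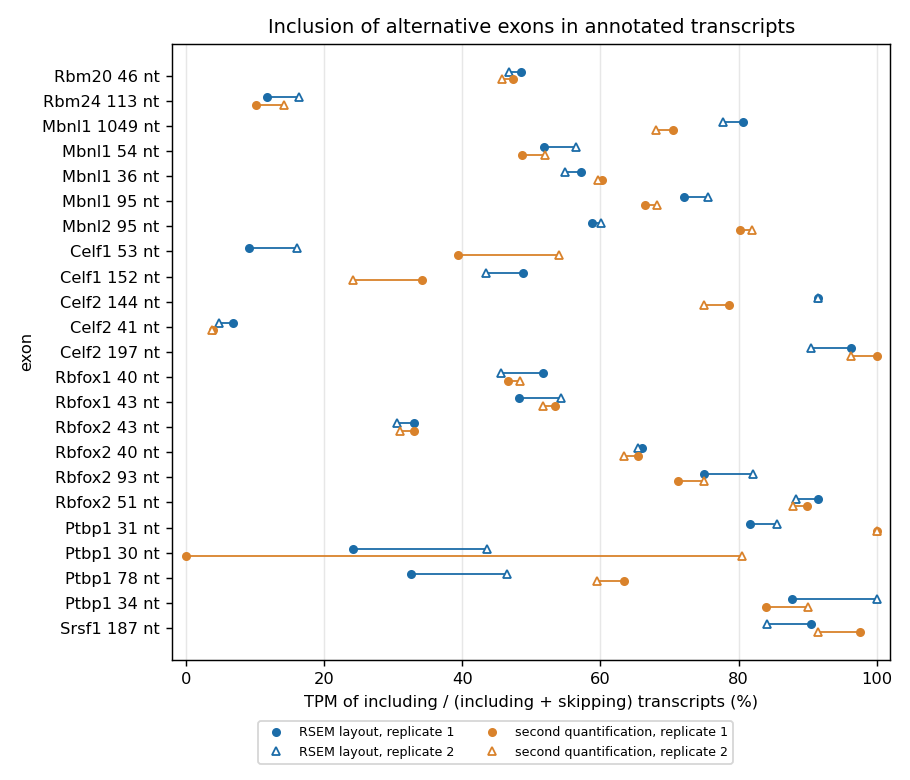
Inclusion (%, horizontal axis) of 23 alternative exons, named by gene and length (vertical axis), as the TPM of including transcript models over including plus skipping models; circles are replicate 1, triangles replicate 2, blue the gene-table layout and orange the second quantification. Most pairs of points are short, while the 53-nucleotide exon of Celf1 and the 78-nucleotide exon of Ptbp1 shift between colours, and the 30-nucleotide exon of Ptbp1 spans 0% to 80.5% in the second quantification.

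None of the 10 regulators differed 2-fold or more between the animals, a call that 118 of 10960 genes with 200 or more counts (1.08%) received. The log2 ratio of replicate 2 over replicate 1 after TMM scaling had a median size of 0.10 over the regulators, against 0.11 over those genes, and a maximum of 0.21. The exact counting interval of the ratio, with an error rate of 0.1%, excluded 1 for 4 regulators. Rbm20 was higher in replicate 2 by 0.21 (log2, interval 0.14 to 0.28), and so was Rbfox2 by 0.18 (0.07 to 0.29). Srsf1 was lower in replicate 2, at -0.21 (-0.35 to -0.07), and so was Mbnl2, at -0.16 (-0.24 to -0.09). These intervals cover counting error only, since the tables hold no molecular identifiers, and 18.1% of the 10960 genes had an interval that excluded 1. The coefficient of variation between the animals was 0.121 over 14694 genes. Erythroid markers were higher in replicate 1, at a summed 8146 TPM against 4416 TPM in replicate 2. Their part in these differences was not tested.

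Of 56 other splicing regulators, 44 reached 1 TPM in both libraries (78.6%). Among the 8 paralogs of the regulators described, 3 did so. Rbm38, a relative of Rbm24, stood at 53.5 and 62.6 TPM, whereas Ptbp3 and Ptbp2 averaged 8.66 and 6.26 TPM. Mbnl3 stood at a mean of 0.425 TPM, and Celf3, Celf5, Celf6 and Rbfox3 were lower still. All 21 hnRNP and other factors were present, with a median of 40.4 ± 2.24 TPM. The highest were Qk, which regulates muscle and myelin splicing, at 184 ± 11.3 TPM, Hnrnpk at 143 ± 2.38 TPM and Hnrnpa2b1 at 127 ± 1.41 TPM, above each of the 10 regulators.

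SR proteins were detected in 11 of 12 cases, with a median of 12.1 ± 1.77 TPM. Srsf2 averaged 30.5 TPM and Srsf3 22.6 TPM, while Srsf5 stood at 25.2 TPM in replicate 1 and 46.6 TPM in replicate 2, the widest gap in the class. All 7 kinases that phosphorylate SR proteins were detected, led by Srpk2 with a mean of 15.9 TPM, Clk1 at 12.4 and 11.7 TPM and Srpk1 with a mean of 11.0 TPM. Of 8 neuronal or epithelial regulators 2 were detected. Srrm4, which acts on neuronal microexons, stood at 5.96 and 7.25 TPM, and Nova2 and Nova1 averaged 1.63 and 1.12 TPM.

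**Figure D5:**
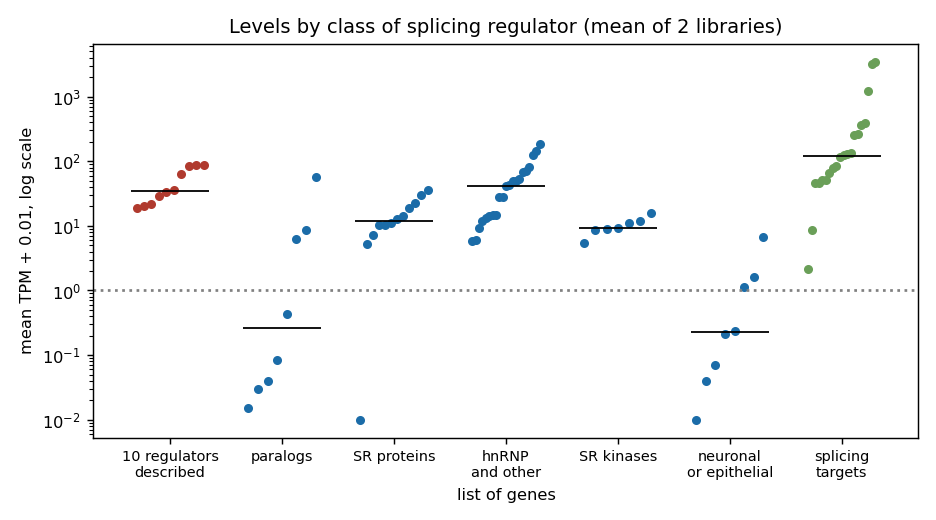
Mean TPM of 2 libraries plus 0.01 on a log scale (vertical axis) for the 10 regulators described, other splicing regulators by class, and splicing targets (horizontal axis); each point is a gene, the short line its class median and the dotted line 1 TPM. The 10 regulators lie between 18.8 and 88.7 TPM, and the paralogs and the neuronal or epithelial factors mostly lie below 1 TPM.

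All 20 genes listed as splicing targets of these regulators in heart were detected, with a median of 120 ± 10.2 TPM. Their leading transcript was the same in both quantifications for 14 of 20. Ttn, which encodes titin and is the best-known Rbm20 target, stood at 1318 and 1169 TPM, and the model Ttn-201, of 81843 nucleotides and shorter than Ttn-203 (106824 nucleotides), led with 39.2 ± 0.912% of the TPM, and with 45.8% and 44.2% in the second quantification. Ryr2-201, of the calcium release channel of the sarcoplasmic reticulum, held 84.6 ± 1.60% and 90.5%. Ldb3-203, of a Z-disc protein, held 68.8 ± 1.83% and 68.5%. Trdn-202, of triadin, held 61.8 ± 0.474% and 55.7%, and Fxr1-201, of an RNA-binding protein of muscle, held 66.3 ± 2.17% and 74.1%.

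For 6 targets the lead changed with the method. Tnnt2, encoding cardiac troponin T, was the extreme: Tnnt2-211 held 75.4 ± 0.863% in the gene-table layout and 3.74% in the second quantification, which put Tnnt2-212 in the lead at 49.3%. The lead passed from Pdlim5-205 (51.5%) to Pdlim5-202 (35.3%). Nfix-201 (39.6%) gave way to Nfix-204 (43.9%), and Cacna1c-218 (36.6%), a processed transcript of 954 nucleotides, to Cacna1c-212 (30.7%). These shares are estimates for annotated models, and the exons that separate the models were not counted.

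Over both libraries, the protein-coding genes nearest in log2 TPM among 15107 were Hist1h4h and Rab12 for Rbm20, Apoe and Ghr for Rbm24, and Retsat and Aldh6a1 for Mbnl1. Retsat, for example, stood at 86.0 and 90.9 TPM beside 86.5 and 90.8 TPM for Mbnl1. With 2 libraries this likeness is one of level only.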

How the data were processed

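Gene and transcript tables of both heart libraries were used. The authors deposited expected counts, TPM and FPKM with interval bounds of TPM, and transcript tables with each transcript's percent of its gene's TPM, in the column layout of RSEM per the file headers. A second deposited transcript table per library holds estimated counts and TPM in the layout of kallisto, per the file headers, and was summed per gene. The deposited file listings name mm10 and GENCODE M21, while tools and versions are not given in these sources. Mouse genes held 99.8% of the expected counts in each library.

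Levels are TPM as deposited. No filter or pseudocount was applied to them. A gene was detected at 1 TPM or more in both libraries. Expected counts were rounded and scaled with TMM (edgeR 4.0.16, R 4.3.3). A difference between animals needed 200 summed counts, a 2-fold ratio and an exact Clopper-Pearson interval (error rate 0.1%) that excluded 1. Exon inclusion is the TPM of annotated transcripts with the exon over that of transcripts with or without it. Python 3.11.15 was used with pandas 2.3.3 and scipy 1.17.1. The interval step was tested on simulated data. Counts of both libraries differed by a chi-square of 15.4 per degree of freedom over 17075 genes, so they are separate libraries. That they come from separate animals rests on the labels, and the SDs measure only the spread between these samples.

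Named genes are the 10 members, the 3 highest of each class of other regulators, up to 5 targets by mean TPM whose lead matched within 10 points and up to 5 whose lead differed (1 of these is not reported here), and the 2 nearest genes of Rbm20, Rbm24 and Mbnl1. Other genes are named where a count left 5 or fewer, and were chosen after their values were seen. The members, gene lists and rules were chosen with earlier results of these data known. The list of targets comes from general knowledge of these regulators, and was not derived from these libraries. Alternatives were another quantification, FPKM, counts scaled by library total (CPM), another denominator, thresholds, DESeq2 1.42.0 scaling, total-count scaling, ERCC scaling and leaving out a replicate. Sums over transcripts of 1000 nucleotides or longer and all exon inclusion values were added after seeing the data.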

Additional observations from a re-analysis of the deposited data

How the results depend on the processing

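All 10 regulators stayed detected, and 0 differed between the animals, under every alternative run. Members with a leading transcript over 50% in both libraries numbered 2 by TPM share, against 1 in the second quantification and 5 by share of expected counts. The log2 ratio of Celf1 to Rbfox2 was -0.34 in the gene tables and turned to 0.23 in the second quantification, 0.057 by expected counts scaled to the library total and 0.045 over transcripts of 1000 nucleotides or longer. The cause was not tested. The number of gene pairs with the first gene higher in both libraries was 5 of 8 by TPM, and 6 in the second quantification and over long transcripts. It was 5 to 6 when a replicate was left out, and 7 by expected counts scaled to the library total. Counts scaled that way are not divided by transcript length. Orders between genes on that scale, including the 0.057 above, therefore mix level with length. No paired analysis was possible because both libraries belong to 1 group. Depth limits Ptbp1 most, with 903 and 932 counts. Exon and transcript shares are model estimates with no junction counts behind them, and 2 libraries limit every SD.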

Other observations

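Apart from Srsf1, 11 other SR proteins had enough counts for a ratio between the animals, and 9 of 11 were lower in replicate 2, with a median log2 ratio of -0.23. Over all genes with 200 or more counts, 5052 of 10960 were lower in replicate 2 and the median ratio was 0.01. The counting interval (error rate 0.1%) lay below 0 for 5 of the 11 SR proteins and for 998 of the 10960 genes. Tra2a, Tra2b and Srsf10 were the lowest, at -0.48, -0.44 and -0.43 (log2), and Srsf5 went the other way at 0.79. Srsf6, Srsf4 and Srsf9, also among the 9, were near no change at -0.0008, -0.02 and -0.07. None was called as differing 2-fold. These genes were singled out after their values were seen, and with 1 library per animal the pattern was not tested.

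Srrm4, known mainly from neurons, had 798 counts in replicate 1 and 902 in replicate 2 while neuron markers were near 0. Its RNA was assigned to Srrm4-203, a retained-intron model at 2.37 and 3.03 TPM, to Srrm4-202, a coding model at 2.61 and 2.59 TPM, and to Srrm4-205, a decay model at 0.97 and 1.64 TPM. The longest coding model, Srrm4-201, was listed at 0 in both libraries and in both quantifications.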
